A study of Mus musculus with 14 samples.

Results

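The genes described here are the 10 members of a fixed list for the NF-kB family and its inhibitors. The list names the subunit genes *Nfkb1*, *Nfkb2*, *Rel*, *Rela* and *Relb*, and the inhibitor genes *Nfkbia*, *Nfkbib*, *Nfkbie*, *Nfkbiz* and *Tnfaip3*. These are 10 of the 28316 genes in the retina matrix and 10 of the 26528 genes in the brain matrix, and a second fixed list holds 58 other genes of the NF-kB pathway. The results concern the neurons, glia and immune cells of the retina and the brain cell types other than endothelial cells (ECs). NF-kB subunits act as dimers, which IkB proteins keep in the cytoplasm until IkB kinase marks those proteins for destruction. Receptors for cytokines and for microbial products start this step. Several inhibitor genes are themselves activated by NF-kB, so that their transcripts are often read as a sign that the pathway is on.

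The data are single-nucleus RNAseq (snRNAseq) counts of retinas and of brain vascular fragments from control and *Cdh5CreER;Tgfbr1 CKO/-* (CKO) mice. In the CKO mice 1 *Tgfbr1* allele carries loxP sites and the other is null, and 4-hydroxytamoxifen (4HT) given on postnatal days 3 to 5 activates a Cre recombinase made in ECs. The mice were 14 days old by the published methods and young adults by the sample labels, and the genotype of the control is given as wild type in the labels. The paper describes its controls as phenotypically wild type, and names *Tgfbr1 CKO/+* and *Tgfbr2 CKO/+* mice with the same driver as typical ones. Strain, the number of mice per retina library and whether control mice received 4HT are not given. The retina has 1 control library and 11 CKO libraries, and the brain has 1 library of each kind, made from 2 pooled brains.

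The driver is designed for ECs, so no deletion by Cre was intended in the cells described here, although 1 *Tgfbr1* allele is null in all cells of the CKO mice. Each transcript is counted once by its unique molecular identifier (UMI), and levels are given as CPM, the UMIs of a gene as a share of all UMIs of the same cell type and library, on the usual scale of that unit. *Tgfbr1*, the targeted gene, had 89.0 CPM over all nuclei of the control retina. In the CKO retinas it had 71.4 to 365 CPM with a median of 79.4, and the highest value came from 33 UMIs in replicate 4, with 87.0 the next highest. Brain *Tgfbr1* was 36.5 CPM (control) and 26.2 CPM (CKO). All CKO retinas but 1 were therefore slightly below the control, but counts from the 3′ end of a transcript do not test whether an exon was deleted, and most of these nuclei are not ECs.

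CKO replicate 4 stands apart from the other retina libraries. By the published methods the authors took out clusters that held multiple nuclei of replicates 4 and 5 by hand. Replicate 4 has 104 nuclei and 90449 UMIs, whereas the CKO median is 4210 nuclei and 16443337 UMIs and the control has 11513 nuclei and 30989702 UMIs. Of its nuclei 65 are labeled immune cells, 25 are retinal ganglion cells (RGCs) and none are rods. In its immune nuclei 0 of 7 rod marker genes were counted, whereas their summed level was 5836 CPM in the control and 4232 to 7471 CPM in the other CKO libraries of the retina. With at least 20 nuclei required of a CKO library and 10 of the control, replicate 4 contributes only to the immune cells and RGCs. Many levels in immune cells are therefore given with and without it, and values given only once for these cells include it. CKO replicate 6 is apart in another way, because its Müller glia have the highest red cell marker level of the retina libraries used, 976 CPM against 1.99 CPM in the control.

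The authors' metadata divide the retina libraries into 3 batches, and the control is in batch 1 with CKO replicates 1 to 3. Replicates 4 and 5 form batch 2 and replicates 6 to 11 form batch 3, and replicates 8 to 11 were made with kit v5.0 instead of v4.0 PLUS. The median number of UMIs per nucleus was 1595 in the control and ranged from 613 in replicate 4 to 4041 in replicate 9. *Xist*, which is transcribed in females, had 6779 CPM in the control retina and was at a similar level only in CKO replicates 1, 2, 4 and 7. The retina comparison is therefore 1 library against 11, and batch, kit and sex are only partly shared between the sides. Nuclei with the same barcode sequence in more than 1 library were rare, 20 of 77676 in the retina and 4 of 31324 in the brain.

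The authors' cell type labels were compared with marker genes. Rods, cones, rod bipolar cells (RBCs) and RGCs had the highest level of every one of their markers (7 of 7, 7 of 7, 6 of 6 and 7 of 7), and the retinal immune cells had the highest level of 8 of 8 microglia markers. Other labels were less distinct. Müller glia had the highest level of 4 of 7 Müller glia markers, whose summed level was 3092 CPM there and 3314 in astrocytes. Of 7 general amacrine markers 1 was highest in the glycinergic and 5 in the GABAergic amacrine cells. In the brain the types CP_6 and CP_8 shared the highest levels of 5 ependymal and choroid plexus markers, with summed levels of 6824 and 40710 CPM, and the cells labeled glia had the highest level of 5 of 6 fibroblast markers. Endothelial markers were also counted in other cells, with 5410 CPM in the control's smooth muscle cells (vSMCs) of the brain against 13500 in ECs. Levels in brain vSMCs and in the label glia (1350 CPM of endothelial markers in the control) can therefore include transcripts of ECs.

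Some members share sequence with other genes. *Nfkb2*, *Nfkbia* and *Nfkbib* overlap genes on the opposite strand, and the strongest of these neighbors are *Psd* for *Nfkb2* and *Sirt2* for *Nfkbib*. In the current annotation *Nfkb1*, *Rela*, *Tnfaip3* and *Nfkbib* overlap genes that are absent from the matrix, and 1 of the 2 beside *Nfkb1* lies on the same strand. The strand setting of the counting is not stated, so for these genes some UMIs may belong to the neighbor.

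*Nfkb1* (chromosome 3, 135290264-135397742) encodes the precursor of a DNA-binding subunit without an activation domain. In cones it had 504 CPM in the control and 415 to 686 CPM in 10 CKO libraries, with a median of 541. In rods it had 2.44 CPM (21 UMIs) in the control and 0.274 to 3.79 CPM in the CKO libraries, with a median of 1.76. The 2 kinds of photoreceptor are thus far apart in every library, and control and CKO values overlap in both. Within a library the level in cones was 207 times that in rods in the control, and 109 to 2247 times that in rods in the CKO libraries, with a median of 303.

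The other retinal types lie between the photoreceptors. Mean CKO levels of *Nfkb1* were 168 CPM in astrocytes, 158 in Müller glia, 119.65 in cone bipolar cells (CBCs), 117 in RBCs, 113 in glycinergic and 99.8 in GABAergic amacrine cells, 98.3 in horizontal cells and 95.9 in RGCs. The matching control levels were 192, 136, 122, 129.5, 108, 90.1, 85.4 and 109 CPM. Ordered by mean level, each type overlaps the next in its range over CKO libraries, except that RGCs are all above rods. The RGC mean includes replicate 4, with 27.7 CPM (1 UMI). Without it the mean is 103 CPM, above GABAergic amacrine and horizontal cells. Within every library that has enough cones, cones had the highest level of all types and rods the lowest. The CKO range of the cones overlaps only that of the immune cells, in which *Nfkb1* had 227 CPM in the control and 51.4 to 976 CPM in the CKO libraries, with a median of 247. The highest of these values is replicate 4, without which the maximum is 343 CPM.

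**Figure D1:**
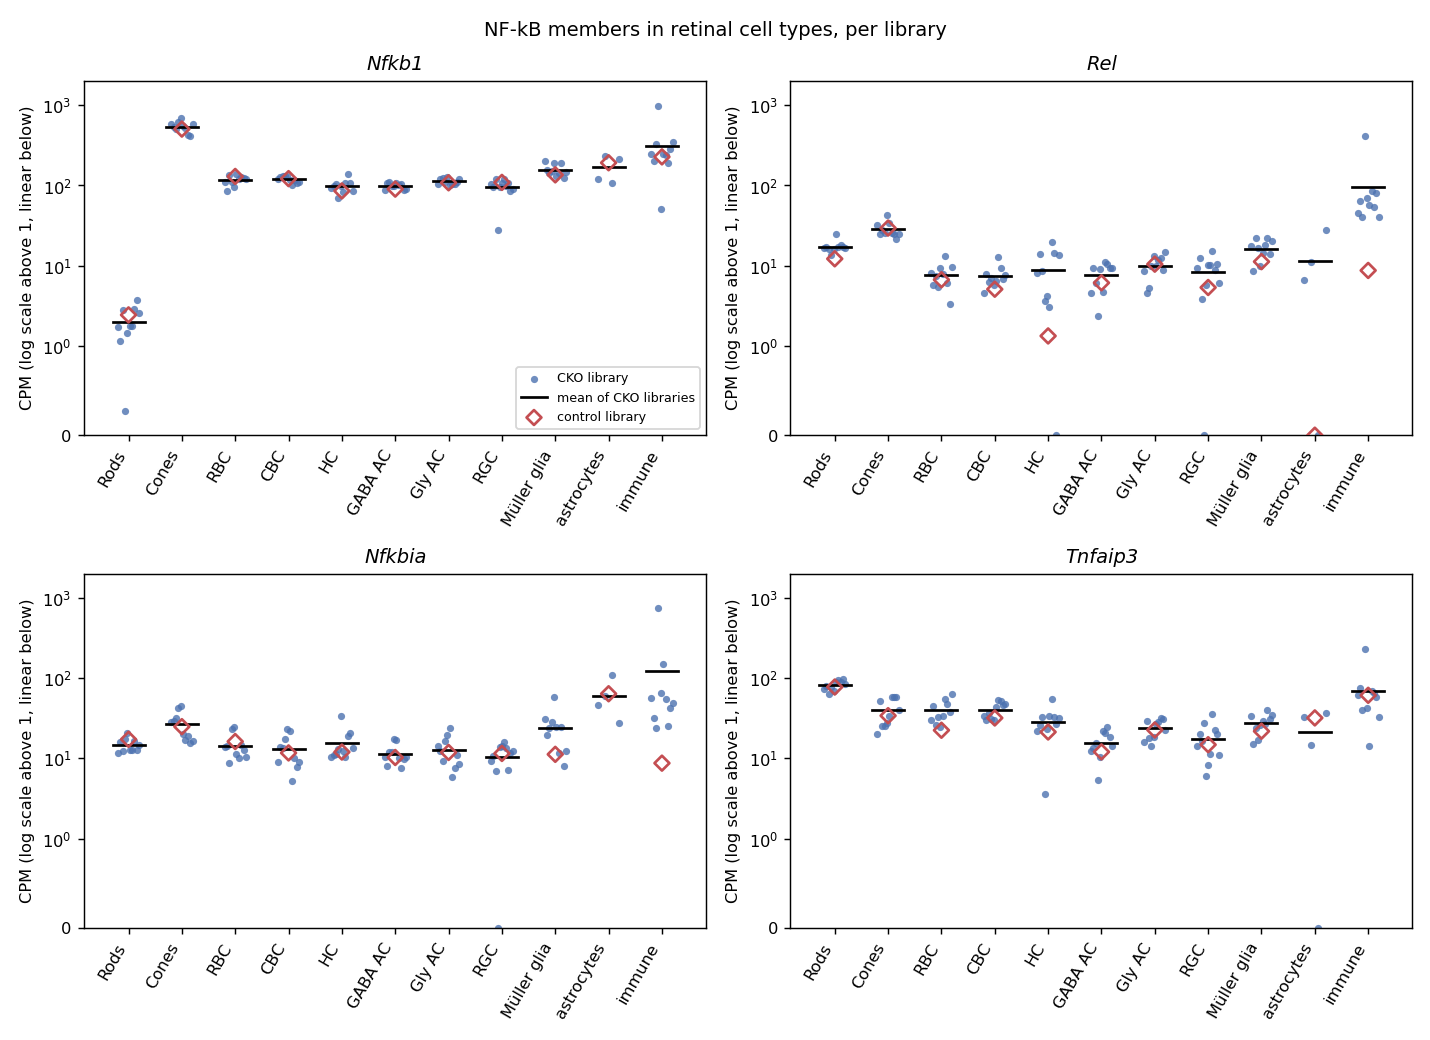
Levels of *Nfkb1*, *Rel*, *Nfkbia* and *Tnfaip3* in 11 retinal cell types. Each blue point is 1 CKO library, black lines are CKO means and the red diamond is the single control library. The axis is logarithmic above 1 CPM and linear below it. Libraries with fewer than 20 nuclei of a type (10 for the control) are not drawn.

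*Rel* (chromosome 11, 23686847-23721264) encodes c-Rel, a subunit with an activation domain that is best known from lymphocytes. The graph of single libraries shows that it was highest in the immune cells of CKO retinas, where it had 40.0 to 418 CPM with a median of 60.4, against 8.74 CPM (1 UMI) in the control. Without replicate 4 the CKO maximum is 85.6 CPM, and all CKO libraries remain above the control. In cones it had 29.5 CPM in the control and 21.5 to 43.2 CPM in the CKO libraries, with a median of 25.6. The cones were above the CBCs in every library, by a factor of 5.78 in the control and of 1.99 to 7.53 in the CKO libraries, with a median of 3.50. In rods *Rel* had 12.2 CPM in the control and 13.7 to 24.6 CPM in the CKO libraries, with a median of 16.8. The control is below every CKO library there, but the difference is small, with a pooled ratio of 1.36 and a 95% counting interval of 1.11 to 1.67.

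*Rela* (chromosome 19, 5687493-5698161) encodes p65, the activating subunit of the most common dimer. Its level followed the batch. In Müller glia *Rela* had 25.8 CPM in the control, 33.5 to 37.9 CPM in the 4 CKO libraries of batches 1 and 2, and 7.12 to 14.8 CPM in the 6 libraries of batch 3. The 2 sets of CKO libraries do not overlap, and their means differ by a factor of 3.00. In rods the values were 19.2 CPM in the control, 15.95 to 21.9 in batches 1 and 2, and 5.83 to 10.4 in batch 3, a factor of 2.46. GABAergic amacrine cells (13.9, 13.96 to 20.3, and 5.72 to 12.1 CPM) and glycinergic amacrine cells (17.0, 14.45 to 20.3, and 8.21 to 12.9 CPM) showed the same division, with factors of 1.83 and 1.77. In CBCs and RBCs the batches overlapped. In RGCs they overlapped only through replicate 4, which had no UMI of *Rela* there, and the other libraries had 14.1 to 20.2 CPM in batches 1 and 2 and 7.09 to 13.4 CPM in batch 3. In cones and horizontal cells *Rela* had fewer than the 200 UMIs asked of this comparison.

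*Rela* was the only member to divide by batch in this way, among members with this number of UMIs in a type. Of all genes with so many UMIs, 2.79% in rods, 2.22% in Müller glia, 2.76% in GABAergic and 2.93% in glycinergic amacrine cells had every CKO library of batches 1 and 2 above every library of batch 3. The genes named in the matrix also differ between batches, since of 19505 genes with 100 or more UMIs 301 were never counted in batch 3 and 617 never in the other batches. Replicates 6 and 7 are in batch 3 but were made with kit v4.0 PLUS. Their *Rela* levels were 5.83 and 5.99 CPM in rods and 14.8 and 7.12 CPM in Müller glia. Whether a change of annotation or of kit lies behind the *Rela* pattern was not tested. Since the control is in batch 1, a comparison of all CKO libraries with the control would mix this division with genotype.

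**Figure D2:**
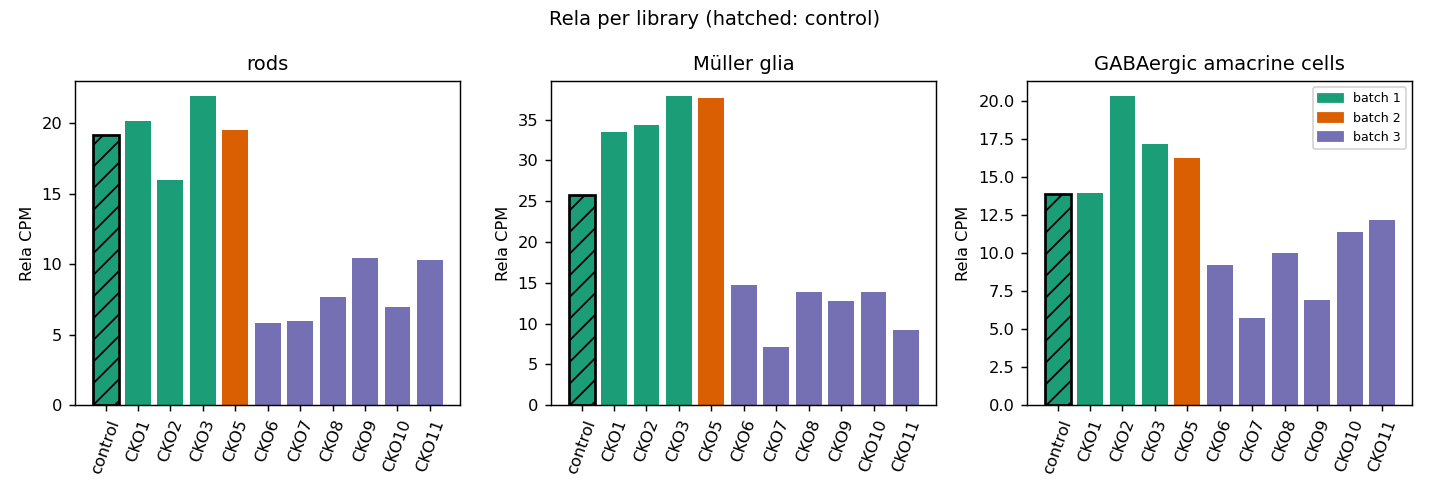
Level of *Rela* in each retina library in rods, Müller glia and GABAergic amacrine cells. Colors give the batch and the hatched bar is the control. Replicate 4 has too few nuclei of these types to be drawn.

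*Nfkb2* (chromosome 19, 46292759-46303812) encodes the precursor of the subunit of the noncanonical pathway. It had 9.41 CPM (81 UMIs) in rods of the control and 0 to 9.95 CPM in the CKO libraries, with a median of 3.78. In cones it had 8.29 CPM (9 UMIs) in the control and 0 to 4.61 CPM in the CKO libraries. In Müller glia the order was the reverse, with 2.65 CPM (4 UMIs) in the control and 2.67 to 8.05 CPM in the CKO libraries, with a median of 4.76. The control thus exceeds all CKO libraries in cones and all but 1 in rods, and lies just below the lowest of them in Müller glia. Outside rods these values rest on few UMIs, and in rods the pooled ratio was 0.580 with a counting interval of 0.453 to 0.750.

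*Relb* (chromosome 7, 19339017-19363425) encodes the partner of the noncanonical subunit and was scarce in most neurons. In RGCs it had 5.36 CPM in the control and a CKO mean of 5.43, and in glycinergic amacrine cells 3.96 and 3.27 CPM. In rods it had 1.74 CPM (15 UMIs) in the control and 0 to 1.00 CPM in the CKO libraries. The control was above every CKO library, with a pooled ratio of 0.171 and a counting interval of 0.0802 to 0.367, but *Relb* in rods had too few counts to be tested. In the 4 CKO libraries with enough astrocytes its mean was 20.4 CPM, with no UMI in replicate 6. The 12 control astrocytes had no UMI of *Relb* either, which allows up to 118 CPM, so the genotypes cannot be compared there.

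*Nfkbia* (chromosome 12, 55535332-55539432) encodes IkB-alpha, the inhibitor that NF-kB induces and that in turn ends the response. In immune cells *Nfkbia* had 8.74 CPM (1 UMI) in the control and 24.0 to 744 CPM in the CKO libraries, with a median of 51.8. Without replicate 4 the CKO maximum is 149.9 CPM and every CKO library is still above the control. In cones it had 24.9 CPM in the control and 15.4 to 45.4 CPM in the CKO libraries, and in rods 17.3 CPM and 11.6 to 20.8 CPM, so control and CKO values overlap in photoreceptors. The mean CKO levels in the inner retinal neurons were 10.5 to 15.6 CPM. Among CKO libraries replicate 6 had the highest level of *Nfkbia* in rods, cones, CBCs, RBCs, horizontal and GABAergic amacrine cells, Müller glia and astrocytes, and replicate 4 aside in immune cells. Astrocytes were higher, with 64.0 CPM (2 UMIs) in the control and a CKO mean of 60.6.

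*Nfkbib* (chromosome 7, 28457486-28466937) and *Nfkbie* (chromosome 17, 45866585-45874661) encode IkB-beta and IkB-epsilon. *Nfkbib* was low and even, with mean CKO levels of 2.48 to 4.95 CPM over the 11 types. *Nfkbie* had a mean of 0.207 to 0.520 CPM in neurons and Müller glia, and 7.39 CPM in immune cells with a range of 0 to 46.5. The high end of that range is replicate 4 and rests on 2 UMIs, and without it the mean is 3.04 CPM and the maximum 10.6.

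*Nfkbiz* (chromosome 16, 55631738-55659262) encodes IkB-zeta, a nuclear protein that alters which genes NF-kB activates. It was highest in glia, with 49.0 CPM in Müller glia of the control and 50.1 to 75.1 CPM in those of the CKO libraries, with a median of 63.8. Müller glia exceeded CBCs by a factor of 5.76 in the control and of 3.94 to 10.1 in the CKO libraries, with a median of 5.52. Astrocytes of the 4 CKO libraries had 37.2 to 74.55 CPM. In RBCs, cones and rods the mean CKO levels were 17.8, 15.4 and 6.60 CPM, against 15.3, 13.8 and 4.88 CPM in the control.

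*Tnfaip3* (chromosome 10, 18874201-18891405) encodes A20, a ubiquitin-editing enzyme that acts upstream of IkB kinase. Unlike *Nfkb1*, *Tnfaip3* had a high level in rods, with 77.5 CPM in the control and 64.3 to 97.9 CPM in the CKO libraries, with a median of 81.6. Rods exceeded cones in every library, by a factor of 2.27 in the control and of 1.51 to 3.66 in the CKO libraries, with a median of 2.31. In RBCs *Tnfaip3* had 22.5 CPM in the control and 24.4 to 63.8 CPM in the CKO libraries, with a median of 35.9. The control is below all 10 CKO libraries, and the pooled ratio is 1.75 with a counting interval of 1.30 to 2.41.

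CKO and control retinas were compared in each cell type with the quasi-likelihood test of edgeR, with the kit as a covariate and p-values adjusted by the method of Benjamini and Hochberg over all genes of the type. The fit had no term for batch, so its values for *Rela* mix batch with genotype. These p-values measure the spread between libraries, because the number of mice behind each library is unknown, and with a single control the spread within the control group is not observed. The 10 members gave 71 combinations of gene and cell type with enough counts. With edgeR 0 of 71 had an adjusted p below 0.05, and the lowest adjusted p was 0.707. Among all genes 4 of 125766 combinations passed, or 0.00318%. This last number depends on the libraries, and it became 85, 174, 12 and 23 when CKO replicates 1, 6, 7 and 8 were left out in turn, and 1125 with DESeq2. For the members it remained 0 in all of these settings.

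At an unadjusted p below 0.05 edgeR gave 3 of 71 combinations and DESeq2 gave 4, against 3.24% of all combinations with edgeR. All 3 were in Müller glia, where 6.02% of all genes were below this p. The number of such combinations was 5 without replicate 6, and 0 both with the CKO libraries of the control's batch alone and with the CKO libraries whose *Xist* level was like the control's. Of all genes in Müller glia 739 of 12901, 701 of 10499 and 283 of 11151 were below this p in these settings, in the order named. With DESeq2 757 of 12992 were. At shares this small, counts of 0 to 5 are not a result about the members. Over all types 42 of 71 log2 fold changes were positive, with a median of 0.08 against 0.02 for all genes. In Müller glia 9 of 9 were positive, with a median of 0.38 against 0.03 for all genes. Both member medians are the same when *Nfkbib* in Müller glia, which has no control UMI, is set to its bound at a floor of 3 control UMIs. *Nfkbie*, which had too few counts to be tested there, had 1.32 CPM (2 UMIs) in the control and a CKO mean of 0.520.

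The 3 members in Müller glia differ in how much they rest on. *Nfkbia* had 11.25 CPM (17 UMIs) in the 402 control nuclei and 8.16 to 57.8 CPM in the CKO libraries, with a median of 24.2. All but 1 of 10 CKO libraries are above the control, and the highest is replicate 6. The log2 fold change was 1.44 with a standard error of 0.64 (edgeR, p = 0.0421, Benjamini-Hochberg adjusted p = 0.812), and the pooled ratio was 2.13 with a counting interval of 1.31 to 3.70. Without replicate 6 the log2 fold change was 1.17, and without the kit covariate it was 1.02 with p = 0.253. The 3 CKO libraries that share the batch and kit of the control had 31.2, 19.3 and 23.9 CPM, all above it.

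*Relb* in Müller glia had 1.32 CPM (2 UMIs) in the control and 0 to 21.5 CPM in the CKO libraries, with a median of 11.9. The only CKO library below the control is replicate 3, with no UMI. The log2 fold change was 2.88 with a standard error of 1.20 (edgeR, p = 0.0331, Benjamini-Hochberg adjusted p = 0.809), and the pooled ratio was 8.02 with a counting interval of 2.18 to 66.9. The width of this interval comes from the 2 UMIs of the control.

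*Nfkbib* in Müller glia had no UMI in the control and 1.19 to 11.95 CPM in the CKO libraries, with a median of 3.48. With no UMI in the control any UMI in a CKO library lies above it, and replicates 2 and 7 have only 1 each. The edgeR test gave p = 0.0138 and a Benjamini-Hochberg adjusted p of 0.707. With a floor of 3 UMIs (1.99 CPM) in the control, the pooled CKO level of 3.98 CPM (51 UMIs) would be 2.00-fold higher. The exact 95% upper limit of the control is 2.44 CPM, which allows a smaller ratio. *Nfkbib* also overlaps the more abundant *Sirt2* on the other strand.

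Red cell markers were higher in CKO than in control Müller glia of the retina, at 40.4 to 976 CPM against 1.99. In retina rods they were higher as well, at 59.1 to 455 CPM against 3.25. Endothelial markers in Müller glia of the retina were alike, at 1088 to 1745 CPM against 1290, and so were microglia markers, at 25.8 to 75.7 CPM against 49.6. CKO Müller glia and rods thus carry more transcripts from blood than those of the control, and whether this bears on the 3 genes was not tested.

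A single control can also lie outside the CKO range by its own error. The control was below every CKO library in 9 of 71 member combinations, against 7.70% of all combinations, and above every CKO library in 0 of 71, against 5.08%. These combinations passed the low-count filter, which removed *Relb* in rods and *Nfkb2* in cones, where the control was above every CKO library. The 9 are *Nfkbiz*, *Nfkb2* and *Nfkbib* in Müller glia, *Nfkbiz* and *Nfkbib* in GABAergic amacrine cells, *Rel* and *Nfkbia* in immune cells, *Rel* in rods and *Tnfaip3* in RBCs. *Nfkbib* in Müller glia is among them because the control has no UMI of it. Outside Müller glia the edgeR test gave unadjusted p = 0.143, 0.192, 0.0555, 0.105, 0.136 and 0.149 for these in the order named, with adjusted p by Benjamini-Hochberg at or near 1. *Nfkbiz* and *Nfkb2* in Müller glia had p = 0.209 and p = 0.220.

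In immune cells 5 members could be tested. *Rel* had a log2 fold change of 3.07 with a standard error of 1.48, and a pooled ratio of 7.63 with a counting interval of 1.35 to 303. For *Nfkbia* the log2 fold change was 3.50, with a pooled ratio of 7.77 and a counting interval of 1.38 to 309. Both intervals are wide because the 29 control nuclei hold 1 UMI of each gene. Without replicate 4 the log2 fold changes were 2.66 (edgeR, p = 0.0125, Benjamini-Hochberg adjusted p = 0.553) and 2.76 (p = 0.0505). *Nfkb1*, *Nfkbiz* and *Tnfaip3* had log2 fold changes of 0.19, 0.80 and −0.13, with p of 0.832, 0.576 and 0.885.

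The 58 other pathway genes comprise 11 kinases, 23 adaptors and ubiquitin system genes, 3 other IkB-like proteins, 9 receptors and 12 targets of NF-kB. They gave 347 testable combinations in the retina, of which 0 had an adjusted p below 0.05 with edgeR and the Benjamini-Hochberg method. At an unadjusted p below 0.05 there were 16, against 3.24% of all combinations. With DESeq2 3 of the 347 passed after adjustment, and so did 1125 of the 125766 combinations of all genes. Of the 347 log2 fold changes 202 were positive, with a median of 0.06 against 0.02 for all genes, and of 0.05 with the 13 combinations without control UMIs at their bound. In Müller glia 28 of 42 were positive, with a median of 0.18, or 0.15 at the bound, and 5 had an unadjusted p below 0.05. In immune cells 25 of 33 were positive, with a median of 0.74, or 0.33 at the bound, against 0.06 for all genes in these cells.

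The pathway genes described next were chosen after their values were seen. *Tnip2* encodes a partner of A20 that restrains NF-kB. In rods *Tnip2* had 17.2 CPM in the control and 25.5 to 45.0 CPM in the CKO libraries, with a median of 33.6. In CBCs it had 4.91 CPM in the control and 10.0 to 18.9 CPM in the CKO libraries, with a median of 13.2. The control was below all 10 CKO libraries in both types, and also in cones, horizontal cells and Müller glia. The log2 fold changes were 1.24 in rods and 1.62 in CBCs (edgeR, p = 0.00119 and p = 0.00131), and adjusted p-values were 0.805 and 1 with edgeR and Benjamini-Hochberg but 0.00059 and 0.0184 with DESeq2. The 3 CKO libraries of the control's batch had 34.2 to 39.9 CPM in rods and 14.3 to 18.9 CPM in CBCs.

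*Bcl3* encodes an IkB-like protein that binds NF-kB in the nucleus. In rods *Bcl3* had 0.349 CPM (3 UMIs) in the control and 1.15 to 7.78 CPM in the CKO libraries, with a median of 4.14. All 10 CKO libraries are above the control, with a pooled ratio of 13.2 and a counting interval of 4.47 to 64.4. The log2 fold change was 4.04 (edgeR, p = 0.00228, Benjamini-Hochberg adjusted p = 1), whereas DESeq2 gave an adjusted p of 0.00979. *Il1r1*, which encodes a receptor for interleukin-1, had 5.96 CPM (9 UMIs) in control Müller glia and 7.12 to 48.0 CPM in the CKO libraries, with a median of 32.5. Again all 10 are above the control, and the log2 fold change was 2.07 (edgeR, p = 0.0136, Benjamini-Hochberg adjusted p = 0.707). *Map3k14*, which encodes the kinase of the noncanonical pathway, had a smaller p there, with 28.5 CPM in the control and 35.5 to 64.4 CPM in the CKO libraries, a log2 fold change of 0.82, p = 0.00718 and a Benjamini-Hochberg adjusted p of 0.648 with edgeR. *Cyld*, which encodes a deubiquitinase that restrains the pathway, had 352 CPM (11 UMIs) in control astrocytes and 53.3 to 168 CPM in 4 CKO libraries. Those 4 lie below the control, as they do for 1212 of 3993 genes tested in astrocytes, with a Benjamini-Hochberg adjusted p of 0.350 with edgeR. Without replicate 6, which leaves 3 CKO libraries, *Cyld* passed the threshold (log2 fold change −1.93, Benjamini-Hochberg adjusted p = 0.0457 with edgeR), as did 168 of 4270 astrocyte genes in all.

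The retinal label immune cells covers several kinds of nuclei. The 720 nuclei were clustered on 16529 genes without the members, and a cluster was named only when it had at least 3 raised markers of 1 class and some of them led its gene list. Of 11 clusters 3 could be named: 133 microglia-like nuclei (14 of the control), 108 macrophage-like nuclei and 49 nuclei with B cell markers (none of the control in either). The last cluster also has 5 raised dendritic cell markers, and with finer clusters 31 of its nuclei were dendritic cell-like and 17 B cell-like, so it is called B/dendritic cell-like here. Clusters with 80, 70 and 46 nuclei carried markers of retinal neurons and held the other 15 control nuclei. The control therefore has only microglia-like nuclei and nuclei with retinal transcripts, and its immune cells differ in kind from those of the CKO libraries.

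*Nfkb1* was highest in the B/dendritic cell-like nuclei, with 732 CPM and a counting interval of 548 to 957, and 422 CPM (340 to 517) in the microglia-like and 249 CPM (184 to 331) in the macrophage-like nuclei. *Rel* had the same leader, with 331 CPM (212 to 492.9) in B/dendritic cell-like nuclei, 130 CPM (84.0 to 192) in macrophage-like and 118 CPM (77.0 to 173) in microglia-like nuclei. For *Nfkbia* an unnamed cluster of 71 nuclei with 7 raised monocyte markers had 328 CPM (200 to 506), close to the 317.5 CPM (201 to 476) of the B/dendritic cell-like nuclei. Microglia-like and macrophage-like nuclei had 63.5 CPM (34.7 to 106.5) and 67.5 CPM. The clusters with retinal markers were below the named clusters in *Nfkb1* (118 to 158 CPM) and *Rel* (14.8 to 45.5 CPM). Their *Nfkbia* was 26.2 to 60.7 CPM, with an upper end close to microglia-like and macrophage-like nuclei. With finer clusters the 17 B cell-like nuclei had 466.8 CPM of *Nfkb1* (213 to 886) and 34 dendritic cell-like nuclei had 757 CPM (558 to 1004). Of the 108 macrophage-like nuclei 51 kept that name, and *Nfkb1* in the finer macrophage-like cluster was lower, as given in the last section. The 133 microglia-like nuclei all fell into unnamed finer clusters.

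The levels were also taken without replicate 4, which has no macrophage-like nuclei. The B/dendritic cell-like nuclei then had 504.7 CPM of *Nfkb1* (352 to 702), 259.5 of *Rel* (154 to 410) and 202 of *Nfkbia* (110.4 to 339). Microglia-like nuclei had 409 CPM of *Nfkb1* (327 to 505), 105 of *Rel* (65.6 to 158) and 52.3 of *Nfkbia* (26.1 to 93.6). The intervals of these 2 clusters then overlap for *Nfkb1* and *Rel*. The cluster with monocyte markers had 225 CPM of *Nfkbia* (119.99 to 385).

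**Figure D3:**
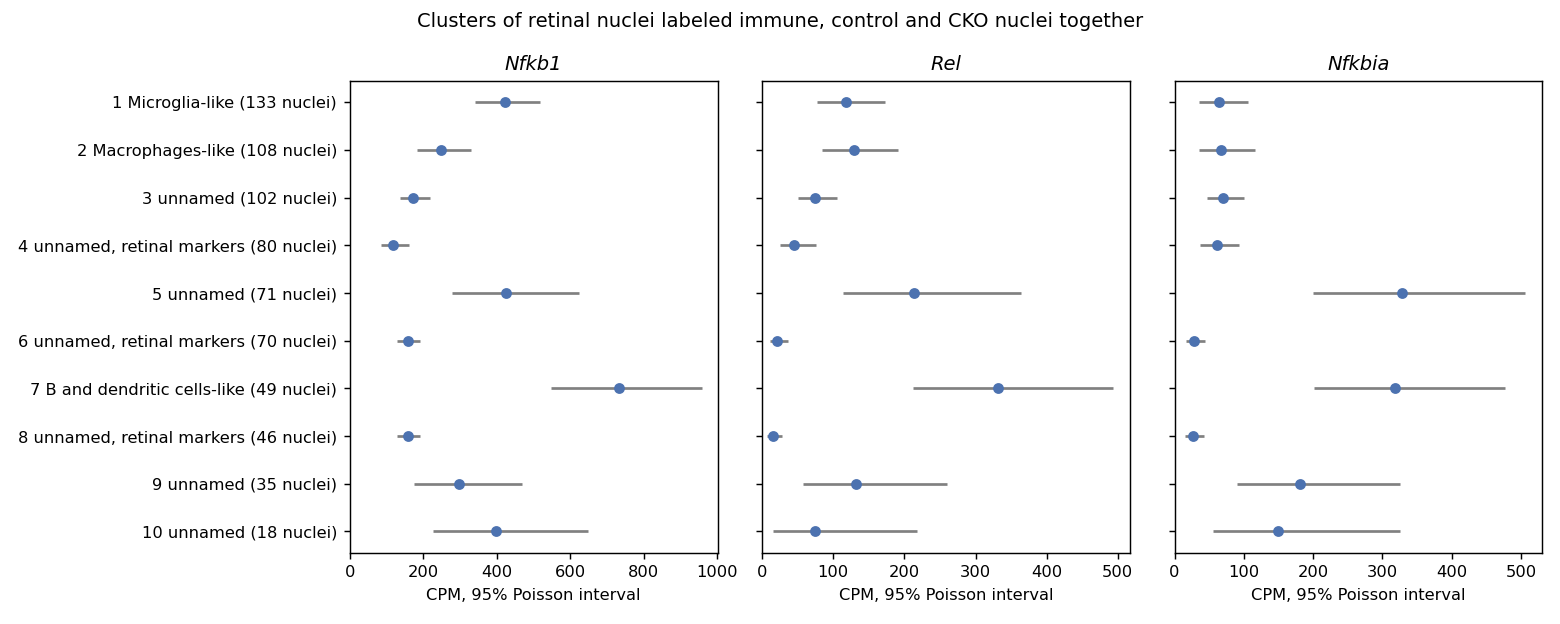
Levels of *Nfkb1*, *Rel* and *Nfkbia* in 10 clusters of retinal immune nuclei, control and CKO nuclei together. Bars are 95% counting intervals. The cluster of 8 nuclei that all come from replicate 4 is not drawn.

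The levels of the rarer members rest on few UMIs. *Nfkb2* had 82.8 CPM (6 UMIs) in B/dendritic cell-like nuclei, 4.53 CPM in microglia-like and none in macrophage-like nuclei. *Relb* had 96.6 CPM (7 UMIs) in B/dendritic cell-like nuclei against 18.1 and 20.8 CPM in microglia-like and macrophage-like nuclei, and *Nfkbie* had 69.0 CPM (5 UMIs) in the B/dendritic cell-like nuclei. *Nfkbiz* was highest in the cluster with monocyte markers (164 CPM), followed by the B/dendritic cell-like cluster (124 CPM). *Tnfaip3* had 27.6 CPM in B/dendritic cell-like, 26.0 in macrophage-like and 68.0 in microglia-like nuclei. Without replicate 4 the B/dendritic cell-like nuclei had 86.5 CPM of *Nfkb2*, 72.1 of *Relb*, 57.7 of *Nfkbie*, 115 of *Nfkbiz* and 14.4 of *Tnfaip3*.

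Within the microglia-like cluster the genotypes can be compared on few counts. *Nfkb1* had 491 CPM (9 UMIs, interval 225 to 933) in the 14 control nuclei and 415 CPM (331 to 514) in the 119 CKO nuclei, of which 18 are from replicate 4. *Rel* had 54.6 CPM (1 UMI, 1.38 to 304) in the control and 124 CPM (80.0 to 183) in the CKO nuclei. *Nfkbia* had no UMI in the control (up to 201 CPM) and 69.2 CPM (37.9 to 116) in the CKO nuclei. All 3 pairs of intervals overlap, so microglia-like nuclei of the 2 genotypes could not be told apart in these genes.

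In the brain 20 cell types had at least 20 nuclei in both libraries, and 19 of them are not ECs. With 1 library of each genotype there is no test, and the counting intervals leave out differences between mice. The libraries also differ in sex makeup, since *Xist* reached 1963 CPM in the control library but only 1.29 CPM in the CKO one. The Y-linked gene *Uty* had 64.5 and 133 CPM in them, so the control library holds male nuclei as well. Ratios of CKO to control were counted for genes with at least 50 UMIs in a type and 10 expected in each library. A ratio past 2-fold in either direction was found in 6 of 30 member combinations outside ECs, 1 higher and 5 lower, against 8.65% of all combinations. Of all combinations 2.09% were higher and 6.56% lower, and in oligodendrocytes 1.54% and 23.05%, so genes in general lean to lower values in the CKO library. With ECs it was found in 7 of 39, against 9.16%. The median log2 ratio of the members outside ECs was −0.13, against −0.02 for all genes.

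*Nfkb1* was lower by more than 2-fold in 3 types of glutamatergic neurons (Glut) and in oligodendrocytes. In Glut_0 it had 20.4 CPM in the CKO and 43.5 in the control library, a ratio of 0.468 with a counting interval of 0.391 to 0.558, where 8.47% of all genes were past 2-fold. In Glut_11 it had 17.0 and 48.6 CPM, a ratio of 0.350 (0.208 to 0.562), against 9.38% of all genes. In Glut_17 the values were 17.7 and 68.7 CPM, a ratio of 0.258 (0.143 to 0.438), against 6.30%. Oligodendrocytes had 12.4 CPM (9 UMIs) and 34.2 CPM, a ratio of 0.362 (0.157 to 0.739), but there 24.6% of all genes were past 2-fold. By the mean over single nuclei the ratio was 0.152 in oligodendrocytes and 0.171 in Glut_17. Of the other glutamatergic groups with enough UMIs, Glut_1, Glut_14 and Glut_19 had ratios of 0.678, 0.655 and 0.729, whereas Glut_21 had 1.40. In Glut_5, with too few expected UMIs to be counted, *Nfkb1* had 80.0 and 23.8 CPM (14 and 38 UMIs), a ratio of 3.36 (1.68 to 6.34).

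These neurons also differ in depth. The median number of UMIs per nucleus in the CKO and control libraries was 2314 and 5004 in Glut_0, 1804 and 4669 in Glut_11, and 1834 and 4117 in Glut_17. The other glutamatergic types with enough UMIs of *Nfkb1* differed in the same direction, with 1653 and 3603 in Glut_1 and 2014 and 3562 in Glut_14. In Glut_19 the medians were 2718 and 6480.5, and in Glut_21, where *Nfkb1* had a ratio of 1.40, 2750 and 5946.5. With nuclei of few UMIs left out, the *Nfkb1* ratios were 0.486 in Glut_0, 0.373 in Glut_11 and 0.272 in Glut_17. Whether depth or sex accounts for the lower *Nfkb1* was not tested. In oligodendrocytes of the brain 9 of 9 endothelial markers were counted in the control (53.5 CPM) and 0 of 9 in the CKO library, so the 2 sets of oligodendrocytes differ in foreign transcripts as well.

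*Nfkb2* in the brain type CP_6 had 8.05 CPM (11 UMIs) in the CKO and 19.4 CPM in the control library, a ratio of 0.415 (0.197 to 0.793), where 4.20% of all genes were past 2-fold. By the mean over single nuclei this ratio was 0.259. *Nfkb1* in the same cells had 268 and 206 CPM, a ratio of 1.30 (1.14 to 1.48), so the lower level of *Nfkb2* is not shared by the other precursor. *Rela* in Glut_1 had 8.82 and 3.32 CPM, a ratio of 2.66 (1.55 to 4.66), against 8.44% of all genes past 2-fold. No other member combination outside ECs that met the UMI minimums was past 2-fold upward. Among those with fewer UMIs *Nfkb1* had a ratio of 6.01 (1.64 to 18.8) in pericytes on 5 and 11 UMIs. In Glut_19 *Rela* had 3.47 (1.27 to 10.9) on 15 and 6 UMIs and *Nfkbiz* 3.24 (1.17 to 10.3) on 14 and 6 UMIs. Downward, *Relb* had a ratio of 0.351 (0.103 to 0.962) in Glut_0 on 5 and 20 UMIs and no UMI in the CKO library against 11 and 9 UMIs in Glut_1 and Glut_17, and *Nfkbiz* had 0.277 (0.0692 to 0.822) in Glut_14 on 4 and 21 UMIs.

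The remaining brain levels describe where the members are found. In the control library *Nfkb1* was highest in microglia (400 CPM, 32 UMIs), followed by astrocytes with 275 CPM in the CKO and 293 in the control library, whereas Glut_20 had 11.2 and 11.4. The CKO library has only 11 microglia, too few to compare. *Nfkbia* had its highest levels in vascular cells, with 604 and 411 CPM in vSMCs, a ratio of 1.47 (1.23 to 1.76), and 543 and 181 CPM in pericytes on 5 and 22 UMIs. It was almost absent from Glut_0, with 0.121 and 0.430 CPM (1 and 5 UMIs). In Glut_1, Glut_5, Glut_11, Glut_14 and Glut_17 it had at most 0.884 CPM in either library, and in Glut_19 none and 3.59 CPM. Glut_21 had 9.66 and 10.5 CPM. Glut_20 had 107 and 74.0 CPM, and it is also the type with the next highest levels of astrocyte, oligodendrocyte and microglia markers after those cells themselves.

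**Figure D4:**
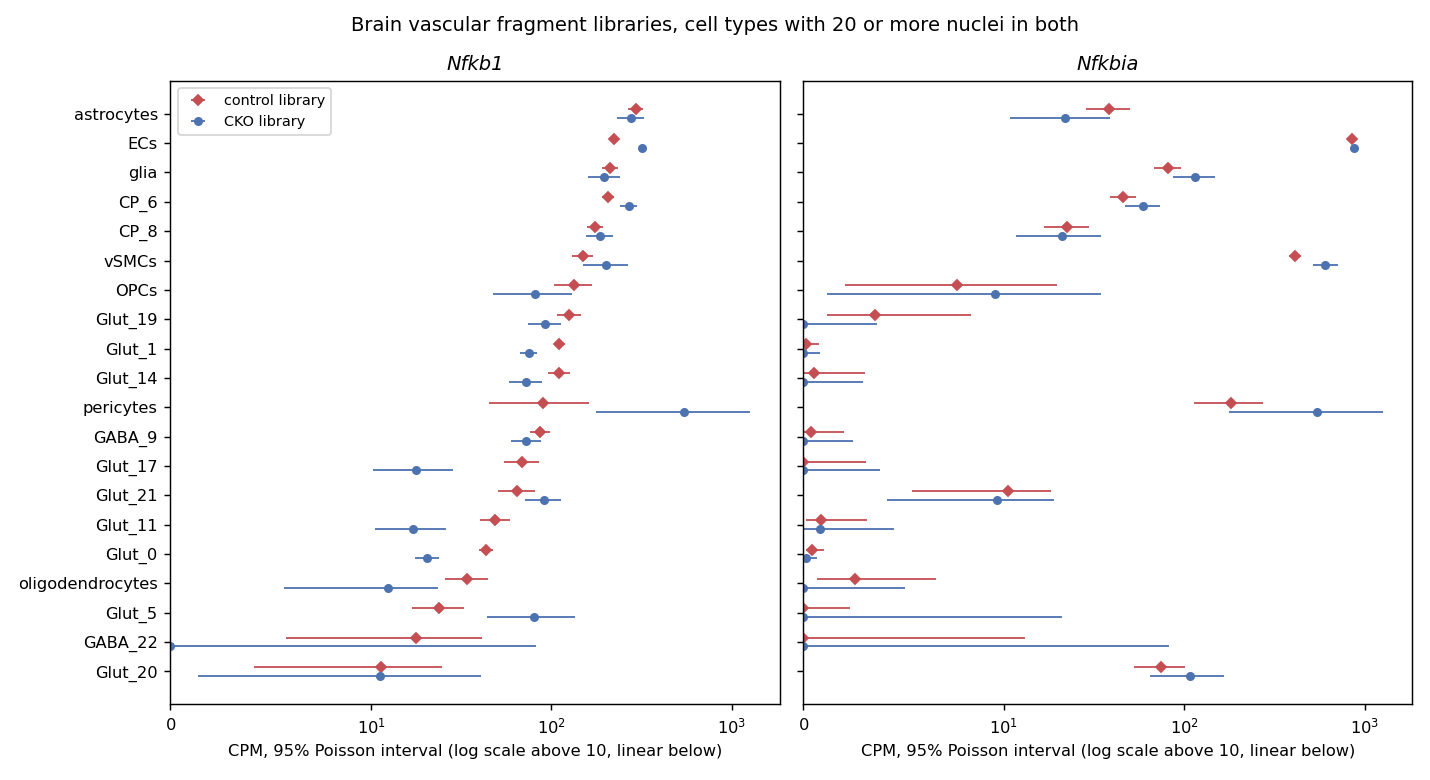
Levels of *Nfkb1* and *Nfkbia* in 20 brain cell types with at least 20 nuclei in both libraries, control in red and CKO in blue. Bars are 95% counting intervals. The axis is logarithmic above 10 CPM and linear below it.

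*Rel* had 42.6 and 37.4 CPM in oligodendrocytes (CKO and control), 24.0 and 19.6 in the label glia and 8.93 and 9.90 in Glut_0, and 188 CPM (15 UMIs) in control microglia. *Relb* had 27.1 and 22.0 CPM in vSMCs and 20.0 and 20.8 in glia, and *Nfkbiz* had 36.1 and 24.8 CPM in glia and 16.8 and 20.3 in CP_6. The ratio of *Nfkbiz* in glia was 1.45 (0.789 to 2.57). *Nfkbib* reached 22.5 and 20.9 CPM in Glut_20, and *Nfkbie* was at most a few UMIs per library in most types outside ECs. *Tnfaip3*, abundant in rods, had no UMI in CP_6, astrocytes or oligodendrocytes of the brain, and 11.6 and 11.0 CPM in vSMCs, whose endothelial markers are high.

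ECs are given for reference. *Nfkbia* had 867 CPM in the CKO and 850 in the control library, *Nfkb1* 318 and 221, and *Relb* 42.9 and 17.9, a ratio of 2.39 (1.91 to 3.02). Of the members with enough UMIs in ECs only *Relb* was past 2-fold, and it was below 2-fold when the mean over single nuclei was used. *Nfkbie*, with 40 and 9 UMIs, was 1 short of the 50 asked and had a ratio of 3.76 (1.80 to 8.82).

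Of the other pathway genes 27 of 239 combinations outside ECs were past 2-fold, or 11.3% against the 8.65% of all genes. Of these 3 were higher and 24 lower, the direction in which all genes lean, and the median log2 ratio was −0.05 against −0.02. The 3 that were higher are *Rnf31* in Glut_0 with a ratio of 3.48, *Chuk* in glia with 2.51, and *Il1r1* in vSMCs with 2.24. In types labeled as neurons the lower ones included *Traf3* in Glut_20 (0.106 on 2 and 56 UMIs), which also carries glial markers, and *Cyld* in GABA_22 (0.247 on 4 and 102 UMIs). They also included *Tnip2* and *Traf6* in Glut_0 (0.153 and 0.335), *Tab3*, *Tank* and *Malt1* in Glut_11 (0.331, 0.331 and 0.358) and *Ikbkb* in Glut_1 and Glut_19 (0.412 and 0.454). In the other types the lower ones included *Vcam1*, *Traf6* and *Birc3* in glia (0.328, 0.380 and 0.386), *Map3k7* and *Otulin* in astrocytes (0.385 and 0.4965), and *Il1rap* in oligodendrocyte precursors (0.342) and vSMCs (0.4535). *Tab1* and *Tbk1* in oligodendrocytes (0.495 each) and *Otulin* in CP_8 (0.4997) were just past the threshold. The ratio of *Tnip2* rests on 7 and 64 UMIs.

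Similarity of pattern was described by Pearson correlation over cell types, for genes with at least 500 UMIs. Over the 11 retinal types the genes most like *Nfkb1* were *Dancr*, *Smim20* and *Smim14* (r of 0.952, 0.951 and 0.942), and those most like *Rel* were *Cog8*, *Grb2* and *Kctd13* (0.975, 0.973 and 0.971). Those most like *Nfkbiz* were *Arf4*, *Adhfe1* and *Pi4k2b* (0.965, 0.9605 and 0.959), and those most like *Tnfaip3* were *Cyb5r1*, *Lmln* and *Taf5* (0.971, 0.970 and 0.968). Over 41 brain points, each a cell type in 1 library, the genes most like *Nfkbia* were *Irf2bp2*, *Epas1* and *Col4a1* (0.962, 0.957 and 0.954). The last 2 are known from vessels, where *Nfkbia* is highest. The best match of *Relb* in the brain was *Zc3hav1* (0.916) and that of *Nfkb1* was *Dennd4c* (0.889). With 11 points many genes reach such values, and types from the same library share its depth and background.

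The promoters of the members were searched for NF-kB motifs because several members were high in the same immune clusters, a choice made after the data were seen. The window ran from 250 bases before to 50 bases after the gene start in the RefSeq annotation of build GRCm38.p6, and both strands were read. The table holds 10 promoters of 7 member genes. The canonical kB motif, whose letters include alternatives, occurs in 8.46% of all 32851 promoters and in 7 promoters of 5 member genes, *Nfkb2*, *Nfkbia*, *Nfkbie*, *Rel* and *Tnfaip3*. The other 2 genes in the table, *Nfkbib* and *Rela*, had no match in the window. A match is a description of the sequence and not a site shown to be bound. Of the genes with a match all but *Tnfaip3* had higher values in B/dendritic cell-like than in microglia-like nuclei, those of *Nfkb2* and *Nfkbie* on 6 and 5 UMIs. So had *Nfkb1*, *Relb* and *Nfkbiz*, which have no promoter in the table. *Nfkbib* had 13.8 and 9.07 CPM in these clusters and *Rela* 27.6 and 36.3 CPM, on 1 to 8 UMIs, and none of these differences was tested. The sequences before the starts of *Nfkb2*, *Nfkbia*, *Nfkbie* and *Rel* are given as those with both a match and a higher value. They are from RefSeq, build GRCm38.p6, on the strand of the gene, with matches on either strand in capitals, for *Nfkb2* (chr19:46304678-46304736), *Nfkbia* (chr12:55492648-55492696), *Nfkbie* (chr17:45555574-45555623) and *Rel* (chr11:23771031-23771081).
Nfkb2: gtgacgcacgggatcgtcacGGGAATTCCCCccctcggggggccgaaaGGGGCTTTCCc
Nfkbia: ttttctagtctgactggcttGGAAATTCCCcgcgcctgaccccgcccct
Nfkbie: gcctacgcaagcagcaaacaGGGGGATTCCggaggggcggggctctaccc
Rel: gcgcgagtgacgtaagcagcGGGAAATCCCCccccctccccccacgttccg

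In *Nfkb2* and *Rel* the run of capitals longer than the motif holds overlapping matches, and the *Nfkb2* window has a further match beside the gene start. The reference of the deposited counts is build GRCm39 in the published methods, so these coordinates differ from those given above for whole genes.

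Several limits apply to all of the results. The retina has a single control library, and neither sex nor batch nor kit is balanced against genotype, so that a difference seen here cannot be told apart from an error of that library. The brain comparison has no replicate. Nuclei contain less of the spliced mRNA than whole cells do, transcript levels do not measure the movement of NF-kB into the nucleus, and retinal ECs are not among the labels. Many member levels rest on fewer than 20 UMIs.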

How the data were processed

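The authors deposited counts of UMIs per gene and nucleus, with cell type labels, for 12 retina and 2 brain libraries. Per the published methods the authors aligned reads to GRCm39 with PIPseeker, removed background with CellBender and doublets with SOLO, and curated nuclei by hand, which took out clusters of nuclei from replicates 4 and 5, whereas the labels name mm10. Counts of each cell type and library were summed here, and levels are CPM with exact 95% Poisson intervals. A CKO library needed 20 nuclei of a type and the control 10. CKO and control retinas were compared in each type with edgeR 4.0.16 (quasi-likelihood, TMM factors, low-count filter, kit covariate) in R 4.3.3, with DESeq2 1.42.0 as the alternative. On simulated data with the same libraries and depths edgeR recovered 85.4% of 198 changed genes in Müller glia, with 8 false calls among 177. The simulated libraries shared a single mean profile and a fixed spread, with no batch or kit difference. Only genes with many UMIs were changed, each by more than 2-fold. This rate holds only for changes of the simulated size and spread, so it does not give the power of the test for the members. Pooled ratios have exact conditional binomial intervals. The brain has no test and a 2-fold threshold. Clusters of immune nuclei came from scanpy 1.11.5 with leidenalg 0.10.2 (2000 variable genes, 20 components, 15 neighbors, resolution 1), and a marker was raised at 2-fold in at least 5% of nuclei. The members and lists were chosen with earlier results of these data known. Members were measured in every type. Other pathway genes are named in the brain when past 2-fold (up to 3 per type other than ECs by the size of the ratio, and all that were higher) and in the retina as a choice made after their values were seen. Genes similar in pattern are the 3 closest for members with at least 500 UMIs. Similarity used log2 of CPM plus 1. Other alternatives left out single libraries, batches or kits, or changed filters, thresholds and clusters.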

Additional observations from a re-analysis of the deposited data

Results flagged for a closer look

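Within each cell type but RGCs the CKO value of every member was tested for 1 library far from the others, in 100 groups of libraries, and 18 values were found. RGCs have 11 CKO libraries, more than the limits used here cover, and were not tested. Chance alone would give about 1 in 20 groups if the values were independent and normally distributed. Many are sparse counts and the groups share libraries, so the number found does not measure an excess over chance.

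In immune cells 8 of the 18 come from CKO replicate 4, which was higher than all other CKO libraries. Its values were 976 CPM for *Nfkb1* (42 UMIs, next highest 343), 418 for *Rel* (18 UMIs, next 85.6), 744 for *Nfkbia* (32 UMIs, next 149.9), 232 for *Tnfaip3* (10 UMIs, next 74.4) and 139 for *Nfkbiz* (6 UMIs, next 50.1). *Nfkb2* and *Relb* had 69.7 CPM each (3 UMIs) and *Nfkbie* 46.5 (2 UMIs). This library has 104 nuclei and no rods, and none of the rod marker genes was counted in its immune nuclei. Of its 65 immune nuclei 21 are in a cluster with cell cycle genes and 8 in a cluster of their own. The published methods state that clusters with nuclei of replicates 4 and 5 were taken out by hand. How much of the difference this accounts for was not tested.

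Of the other values 3 are from replicate 6, whose *Nfkbia* was also the highest of the CKO libraries in rods, cones, CBCs, RBCs, GABAergic amacrine cells and astrocytes. In Müller glia *Nfkbia* had 57.8 CPM in replicate 6 (47 UMIs, next 31.2) and *Nfkbib* 11.95 in replicate 3 (6 UMIs, next 6.40). In rods *Rel* had 24.6 CPM in replicate 7 (70 UMIs, next 18.3). In horizontal cells *Nfkbia* had 33.96 CPM in replicate 6 (16 UMIs, next 20.8) and *Relb* 6.13 in replicate 7 (2 UMIs). *Rela* in immune cells of replicate 2 had 53.1 CPM (5 UMIs), and *Relb* in RBCs of replicate 6 had 4.66 CPM (4 UMIs). On 1 or 2 UMIs *Nfkbie* had 7.44 CPM in astrocytes of replicate 5 and 1.54 in cones of replicate 10. *Nfkb2* in cones of replicate 3 was the only low one found in the types tested, with 0 CPM against 2.27 in the next library.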

How the results depend on the processing

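With edgeR 0 members were called in every setting and when any 1 library was left out. The count of all genes called, 4, became 8 without the kit covariate, 21 with v4.0 PLUS libraries only, 71 with libraries of the control's batch only, 0 with libraries whose *Xist* was like the control's, 101 without the low-count filter and 1125 with DESeq2. Leaving out 1 CKO library gave 4 to 174. Most of the added calls without replicate 6 were in astrocytes, which then had 3 CKO libraries. Of 1125 DESeq2 calls 857 were genes with UMIs only in batch 3. The count of pathway genes called, 0, became 3 with DESeq2 and 0 to 1 when 1 CKO library was left out. In the brain 13 member combinations instead of 7 were past a 1.5-fold threshold, where 23.8% of all genes were. The other settings gave 7 to 10. The share of all genes is not given for those settings, so these counts do not single out the members. By the mean over nuclei *Nfkb2* in CP_6 had a ratio of 0.259 and *Nfkb1* in Glut_17 of 0.171, *Nfkbia* in astrocytes (0.239), *Rel* in Glut_1 (0.328) and *Nfkbiz* in ECs (2.01) were added, and *Relb* in ECs was lost. The cause of these shifts was not tested. Each main result was set beside its value under each setting. Of these pairs 61 were the same, meaning equal or within 1.5-fold, and 13 moved. Many of the 61 repeat a count of 0 called, so they are not separate results. Of the values of single genes under these settings 207 counted as the same, 7 moved and none reversed. Levels and brain ratios counted as the same when they stayed within their spread or counting interval. Retinal log2 fold changes counted as the same when their sign and their lack of a call were unchanged. Since no member was called in any setting, that count does not measure how far the fold changes shifted. The 7 that moved include *Nfkb1* in macrophage-like nuclei with finer clusters (149 CPM) and in brain oligodendrocytes by the mean over nuclei (ratio 0.152). *Nfkbib* in Müller glia could not be tested in the control's batch alone, in the *Xist*-like libraries or without replicate 3. No paired analysis was possible because the control is a single library. Depth limits the members with few UMIs, since at the control's depth 3 UMIs are 0.349 CPM in rods and 26.2 CPM in immune cells.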
